A study of Mus musculus with 21 samples.

Results

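Transcripts of the calpain system were measured in mouse skeletal muscle through 5 genes: the catalytic subunits Capn1 and Capn2, their shared regulatory subunit Capns1, the muscle calpain Capn3, and calpastatin (Cast), the inhibitor. They were chosen by name, as the rows of the count table whose Ensembl mouse identifier carries one of these symbols, and are 5 of 46071 genes in the table. All 5 were found and all 5 passed the filter on low counts. None of the 5 genes passed the test in any of the 5 planned comparisons, which called 0.0079% to 4.89% of all genes tested. What follows gives the levels of the 5 genes, the sizes of differences that the data allow, and the measurements that moved with them.

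Calpains are calcium-dependent cysteine proteases that cut their substrates at a few sites rather than degrading them fully. In muscle, the conventional enzymes pair Capn1 or Capn2 with Capns1, are held in check by calpastatin, and are known for releasing myofibrillar and cytoskeletal proteins ahead of their breakdown by the proteasome. Capn3 acts without the small subunit, binds titin in the sarcomere and is not inhibited by calpastatin; loss of human CAPN3 causes a limb-girdle muscular dystrophy.

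The study asked how FoxO transcription factors, which switch on many genes of muscle breakdown when insulin signalling is low, bear on muscle loss in diabetes. Total RNA came from powder of quadriceps and gastrocnemius muscle combined, and 21 libraries fall into 4 groups. STZ TKO (n = 6) are mice that lack FoxO1, FoxO3 and FoxO4 in muscle through ACTA1-Cre and were made diabetic with streptozotocin (STZ), a toxin of insulin-producing beta cells. STZ floxed (n = 5) carry the same floxed FoxO alleles and received STZ. TKO (n = 6) are the knockout without STZ, and floxed (n = 4) are mice with floxed alleles and no STZ, for which the labels give no drug and the study's design gives citrate buffer. STZ was injected once at 150 mg/kg, females received a further 75 mg/kg on day 3, and only mice whose blood glucose stayed above 300 mg/dL were used. Controls were littermates, and the strain background was a mixture of C57 and 129. The sources used here do not give the age at sampling, the sex of each library or whether each library is a separate animal, so p-values measure the spread between libraries. ACTA1-Cre acts in muscle fibres, so the other cells of the tissue should keep their FoxO genes.

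Totals ran from 3586183 to 6234979 counts in STZ TKO, from 3377613 to 7676700 in STZ floxed, from 2951290 to 6014870 in TKO and from 4176132 to 7687823 in floxed libraries. Levels are CPM, counts scaled to a common library total, after TMM scaling, which corrects for differences in library composition. Foxo4 averaged 7.43 ± 2.70 CPM in STZ TKO and 190.2 ± 7.72 in STZ floxed, and 6.24 ± 1.52 in TKO and 159.6 ± 29.5 in floxed libraries (SD). Foxo1 averaged 15.8 ± 5.61 CPM in STZ TKO and 56.8 ± 21.1 in STZ floxed, and 14.6 ± 3.97 in TKO and 68.9 ± 30.6 in floxed libraries. The ranges of both genes did not overlap between genotypes, as the labels have it, whereas Foxo3, counted over the whole gene, averaged 136 ± 60.7 CPM in STZ TKO and 90.3 ± 14.0 in STZ floxed libraries. The sources used here do not say which exons of Foxo3 were removed, so its count does not check the label. The muscle fibre markers Acta1, Ckm and the myosins were abundant in every library, with a summed level of 43300 to 195200 CPM over 10 markers.

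The 5 genes lie on different chromosomes, with positions given on GRCm38. Capn1 (ENSMUSG00000024942) spans chromosome 19 from 5988545 to 6015897 on the minus strand. Capn2 (ENSMUSG00000026509) spans chromosome 1 from 182467260 to 182517608, minus strand, and Capns1 (ENSMUSG00000001794) chromosome 7 from 30186936 to 30198811, minus strand. Capn3 (ENSMUSG00000079110) spans chromosome 2 from 120456019 to 120504913 on the plus strand, and Cast (ENSMUSG00000021585) chromosome 13 from 74692368 to 74808810 on the minus strand. Each member shares exon sequence with a neighbouring gene. Capn1 shares 394 bases with Gm10814, Capn2 1717 with Gm37885, Capns1 202 with Gm26810 and Cast 834 with Erap1, all on the opposite strand. Capn3 shares 386 bases with Ganc, an alpha-glucosidase gene on the same strand. The strand setting of the counting is not given, so reads in these stretches, which make up at most 27.1% of a member's exon bases, are of uncertain assignment.

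The promoters are shown because the knockout removes DNA-binding factors whose core motif can be looked for in them. RefSeq lists 10 promoter windows for the 5 genes in GRCm38.p6, each from 250 bases before to 50 bases after a start site. The windows below belong to the 3 catalytic genes that the comparisons turn on, 5′ to 3′ on the gene's strand, and capitals mark the matches described after them.
Capn1, chr19:6015776-6016075, minus strand: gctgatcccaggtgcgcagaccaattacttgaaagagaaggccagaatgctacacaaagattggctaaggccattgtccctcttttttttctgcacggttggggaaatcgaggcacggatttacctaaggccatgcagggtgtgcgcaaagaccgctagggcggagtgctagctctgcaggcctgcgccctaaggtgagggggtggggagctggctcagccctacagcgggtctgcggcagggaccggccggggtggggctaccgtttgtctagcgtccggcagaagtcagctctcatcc
Capn2, chr1:182517561-182517860, minus strand: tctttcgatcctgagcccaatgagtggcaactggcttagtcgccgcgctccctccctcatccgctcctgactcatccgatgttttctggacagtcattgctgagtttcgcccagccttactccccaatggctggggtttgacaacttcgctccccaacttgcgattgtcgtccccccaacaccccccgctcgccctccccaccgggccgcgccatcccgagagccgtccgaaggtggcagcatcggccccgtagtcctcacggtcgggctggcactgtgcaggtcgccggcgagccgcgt
Capn3 upstream window, chr2:120463343-120463642, plus strand: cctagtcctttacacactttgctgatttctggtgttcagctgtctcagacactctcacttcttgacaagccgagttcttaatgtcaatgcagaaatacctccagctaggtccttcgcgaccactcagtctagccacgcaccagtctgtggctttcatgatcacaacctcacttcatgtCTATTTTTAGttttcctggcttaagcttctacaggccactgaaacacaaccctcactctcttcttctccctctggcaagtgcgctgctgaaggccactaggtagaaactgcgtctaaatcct
Capn3 downstream window, chr2:120476659-120476958, plus strand: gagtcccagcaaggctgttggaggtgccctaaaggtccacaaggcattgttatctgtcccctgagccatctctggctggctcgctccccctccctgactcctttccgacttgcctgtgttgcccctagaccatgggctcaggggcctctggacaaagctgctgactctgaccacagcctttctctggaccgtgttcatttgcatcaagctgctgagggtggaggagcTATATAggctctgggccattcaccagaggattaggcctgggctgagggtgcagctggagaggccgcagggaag
Searched on both strands, the FoxO core TGTTTAC occurred in 0 of the 10 windows and in 3.65% of 32851 promoters. The related insulin response element TGTTTTG also occurred in 0 of the 10 windows, and in 6.28% of all promoters. A MEF2 motif (MEF2 is a muscle transcription factor) was present in the upstream Capn3 window as CTATTTTTAG, which begins 72 bases before the start site, and in 1.86% of all promoters. TATATA began 23 bases before the start in the downstream Capn3 window and 193 bases before it in the Capns1 window, and occurred in 5.67% of all promoters. No match overlapped another. The Capn2 window held 27 CpG dinucleotides and the printed Capn1 window 15, against a median of 7 over all promoters. The 2 Capn3 windows held 6 and 4, and the 4 Cast windows between 2 and 11. A match is a run of letters, not a bound site, and a missing match covers only these 300 bases.

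Read per kilobase of exon, so that genes can be compared, Capns1 was the most abundant of the 5 transcripts. Its level averaged 165 CPM per kb in STZ TKO, 161 in STZ floxed, 162 in TKO and 145 in floxed libraries. Over all 21 libraries its mean level ranked 172 among 12614 tested genes with a known length. Capn3 followed at 55.5 CPM per kb in STZ TKO, 73.8 in STZ floxed, 52.9 in TKO and 67.8 in floxed libraries. Capn1 stood at 47.0 CPM per kb in STZ TKO, 33.8 in STZ floxed, 59.6 in TKO and 49.3 in floxed libraries, so its place relative to Capn3 varied with the group. Capn2 stood at 22.4, 20.5, 19.8 and 14.6 CPM per kb in STZ TKO, STZ floxed, TKO and floxed libraries. Cast was the lowest at 10.1, 8.72, 8.48 and 7.80 CPM per kb in the same order of groups.

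Most of this order held inside each library. Capns1 exceeded Capn3 in 20 of 21 libraries, Capn3 exceeded Capn2 in 21 of 21, and both Capn1 and Capn2 exceeded Cast in 21 of 21. Capn1 exceeded Capn2 in 20 of 21 libraries, the exception being STZ floxed library 17. Capn3 exceeded Capn1 in 4 of 6 STZ TKO, 5 of 5 STZ floxed, 2 of 6 TKO and 4 of 4 floxed libraries. By exon length, Capn1 and Capn3 are therefore neighbours that do not differ beyond the spread within the knockout groups. The longest coding transcript was an alternative length, added after the data were seen. With it, Capn3 exceeded Capn1 in 19 of 21 and Capn1 exceeded Capn2 in 16 of 21 libraries. Capn3 then exceeded Capn1 in 5 of 6 STZ TKO and 5 of 6 TKO libraries, so their order depends on the length used.

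**Figure D1:**
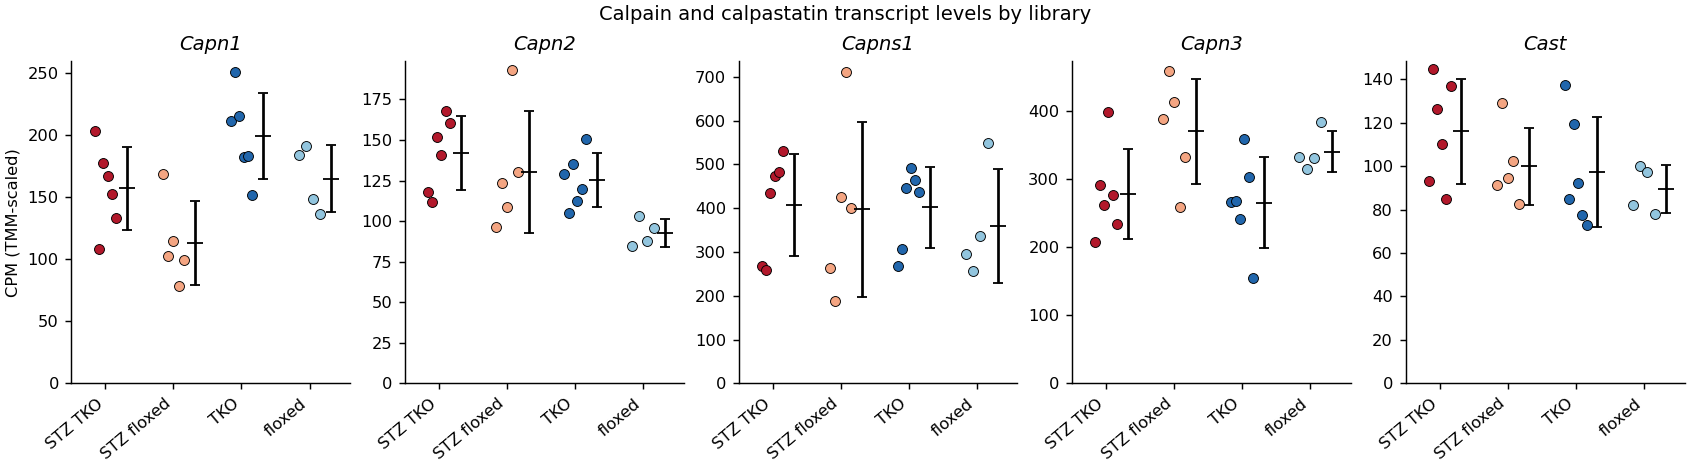
Level of each gene in every library, in TMM-scaled CPM on a linear axis that starts at 0; points are libraries in the 4 groups, and bars are the group mean with 1 SD beside the points. The TKO libraries of Capn2 sit above all floxed libraries, while the groups of the other 4 genes overlap.

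Capn1, the large subunit of mu-calpain, which responds to low calcium, was lowest on average in STZ floxed muscle. Its level in CPM was 203.7, 108.6, 177.1, 167.3, 152.5 and 133.5 in STZ TKO libraries 4, 8, 11, 12, 15 and 18. In STZ floxed libraries 3, 7, 14, 17 and 21 the level was 168.9, 102.6, 114.8, 78.7 and 99.6 CPM. STZ floxed libraries 7, 17 and 21 lay below every STZ TKO library, while libraries 3 and 14 lay inside the STZ TKO range. In TKO libraries 2, 6, 10, 13, 16 and 20 it was 211.6, 251.0, 215.5, 182.7, 183.4 and 151.7 CPM. In floxed libraries 1, 5, 9 and 19 it was 183.9, 191.0, 148.3 and 136.1 CPM. The TKO range reached above the floxed range and overlapped it.

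The group means of Capn1 were 157 ± 33.5 CPM in STZ TKO and 113 ± 33.9 in STZ floxed, and 199 ± 34.3 in TKO and 165 ± 26.7 in floxed libraries (SD; n as above). The log2 fold change of STZ TKO against STZ floxed was 0.48 ± 0.20 (SE), with a 95% interval of 0.07 to 0.88, an unadjusted p of 0.023 and an edgeR quasi-likelihood adjusted p = 0.177. TKO against floxed gave 0.27 ± 0.21, with an interval of -0.16 to 0.70 and an edgeR adjusted p = 0.718. These comparisons share no libraries, and both estimates had the same sign. STZ floxed against floxed gave -0.54 ± 0.21, an interval of -0.99 to -0.10, an unadjusted p of 0.0182 and an edgeR adjusted p = 0.232. STZ TKO against TKO gave -0.34, an interval of -0.72 to 0.04 and an edgeR adjusted p = 0.481. The estimate was negative in both STZ comparisons and none of the 4 passed the threshold of an adjusted p of 0.05. Without STZ floxed library 3, STZ TKO against STZ floxed gave 0.67 with an edgeR adjusted p = 0.0484, so that single library decides whether Capn1 passes.

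Capn2, the large subunit of m-calpain, which needs more calcium, was lowest in floxed muscle. Its level was 117.9, 111.9, 151.8, 140.9, 168.2 and 160.7 CPM in STZ TKO libraries 4, 8, 11, 12, 15 and 18. It was 96.5, 123.3, 108.6, 193.2 and 130.2 CPM in STZ floxed libraries 3, 7, 14, 17 and 21, a range that encloses all STZ TKO values. In TKO libraries 2, 6, 10, 13, 16 and 20 it was 128.9, 105.0, 135.3, 112.7, 119.7 and 150.4 CPM, against 84.7, 103.3, 87.5 and 95.5 CPM in floxed libraries 1, 5, 9 and 19. The lowest TKO library was thus just above the highest floxed library, at 105.0 against 103.3 CPM. This was the only pair of groups among the 4 comparisons in which a member's ranges did not overlap, and 2.35% of the 12658 genes tested lay wholly higher in TKO than in floxed libraries.

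Capn2 averaged 142 ± 22.9 CPM in STZ TKO and 130.4 ± 37.5 in STZ floxed, and 125 ± 16.4 in TKO and 92.7 ± 8.40 in floxed libraries. The log2 fold change of TKO against floxed was 0.44 ± 0.18, with an interval of 0.06 to 0.81, an unadjusted p of 0.0264 and an edgeR adjusted p = 0.325. STZ floxed against floxed, which uses the same 4 floxed libraries, gave 0.49 ± 0.19, an interval of 0.10 to 0.88, an unadjusted p of 0.0164 and an edgeR adjusted p = 0.222. STZ TKO against STZ floxed gave 0.12 ± 0.17 (-0.23 to 0.47; edgeR adjusted p = 0.767). STZ TKO against TKO gave 0.18 ± 0.16 (-0.16 to 0.51; edgeR adjusted p = 0.671). The estimates set against floxed libraries were the larger ones, and the other intervals reached up to 0.47 and 0.51.

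Capns1, the small subunit that stabilises both conventional enzymes, had the widest spread of the 5, with a coefficient of variation of 32.4% over 21 libraries. Its level in CPM was 268.5, 259.0, 434.3, 473.4, 482.6 and 531.6 in STZ TKO libraries 4, 8, 11, 12, 15 and 18. In STZ floxed libraries 3, 7, 14, 17 and 21 it was 264.3, 189.1, 426.0, 710.2 and 400.9 CPM. It was 267.7, 306.3, 446.1, 490.9, 465.0 and 437.2 CPM in TKO libraries 2, 6, 10, 13, 16 and 20, and 295.9, 256.1, 336.6 and 548.9 CPM in floxed libraries 1, 5, 9 and 19. Every group held low and high libraries, and all 4 groups overlapped. The means were 408 ± 116 CPM in STZ TKO and 398 ± 199.9 in STZ floxed, and 402 ± 91.9 in TKO and 359 ± 130.5 in floxed libraries.

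In every group, Capns1 was lower in the libraries with the earliest codes than in the others. The codes in the sample titles form 6 runs of consecutive numbers, which the labels do not call batches, and each run mixes knockout and floxed libraries. All 8 libraries of runs 1 and 2 lay between 189 and 306 CPM (median 266), and all 13 libraries of runs 3 to 6 between 337 and 710 CPM (median 465). Of 12658 genes tested, 9 lay wholly higher in runs 3 to 6 (0.0711%), Capns1 among them, and 3 wholly lower (0.0237%). This split was noticed after the data were seen, so these shares do not test whether Capns1 followed the codes. The ranges of the other 4 members overlapped between these sets of runs. Capn2, for example, had a median of 108.5 CPM in runs 1 and 2 and 135 CPM in runs 3 to 6.

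**Figure D2:**
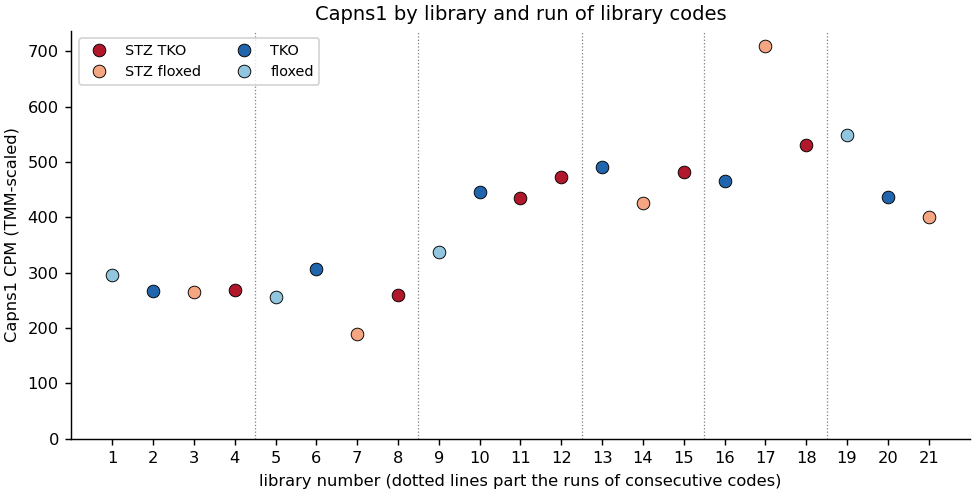
Capns1 in TMM-scaled CPM for each of the 21 libraries in the order of their title number, with dotted lines between the 6 runs of library codes (consecutive, but for a code skipped in run 3) and colours for the 4 groups. The 8 libraries of runs 1 and 2 sit at or under 306 CPM and the 13 libraries of runs 3 to 6 at or over 337 CPM, whatever their group.

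Group differences in Capns1 were small beside this spread. The log2 fold change was 0.04 ± 0.29 in STZ TKO against STZ floxed (-0.56 to 0.63; edgeR adjusted p = 0.97). It was 0.16 ± 0.31 in TKO against floxed (-0.48 to 0.80; edgeR adjusted p = 0.924), 0.15 ± 0.32 in STZ floxed against floxed (-0.51 to 0.81; edgeR adjusted p = 0.877) and 0.02 ± 0.27 in STZ TKO against TKO (-0.55 to 0.59; edgeR adjusted p = 0.986). With the code run as a block the 4 values became 0.12, -0.02, -0.12 and 0.02, so the sign of 2 of them turned. The upper ends of the intervals ran from 0.59 to 0.81.

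Capn3, the titin-binding calpain found mainly in skeletal muscle, was lower on average in both knockout groups. Its level was 208.4, 292.4, 262.8, 399.3, 277.4 and 233.7 CPM in STZ TKO libraries 4, 8, 11, 12, 15 and 18. In STZ floxed libraries 3, 7, 14, 17 and 21 it was 389.0, 458.7, 414.2, 259.2 and 332.7 CPM. The ranges overlapped widely: STZ TKO libraries 8, 11, 12 and 15 and STZ floxed libraries 3, 17 and 21 lay within the other group's range. In TKO libraries 2, 6, 10, 13, 16 and 20 it was 267.4, 268.7, 242.3, 358.7, 302.9 and 155.4 CPM, against 332.9, 315.5, 330.7 and 383.9 CPM in floxed libraries 1, 5, 9 and 19. All TKO libraries but library 13 lay below the lowest floxed library.

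Capn3 averaged 279 ± 66.3 CPM in STZ TKO and 371 ± 77.2 in STZ floxed, and 266 ± 67.5 in TKO and 341 ± 29.8 in floxed libraries. The log2 fold change of STZ TKO against STZ floxed was -0.41 ± 0.20 (-0.82 to 0.00; unadjusted p = 0.0517, edgeR adjusted p = 0.273). That of TKO against floxed was -0.36 ± 0.21 (-0.80 to 0.08; edgeR adjusted p = 0.586). STZ floxed against floxed gave 0.12 ± 0.22 (-0.34 to 0.58; edgeR adjusted p = 0.852) and STZ TKO against TKO gave 0.07 ± 0.19 (-0.33 to 0.47; edgeR adjusted p = 0.914). Both knockout estimates were negative, both STZ estimates lay near 0, and none passed the threshold.

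Cast, the inhibitor of the conventional calpains, averaged 116 ± 24.1 CPM in STZ TKO and 99.97 ± 17.8 in STZ floxed, and 97.3 ± 25.5 in TKO and 89.5 ± 11.0 in floxed libraries. Its level was 93.1, 144.7, 126.4, 110.0, 85.0 and 137.1 CPM in STZ TKO libraries 4, 8, 11, 12, 15 and 18, and 91.4, 129.2, 94.3, 102.3 and 82.7 CPM in STZ floxed libraries 3, 7, 14, 17 and 21. It ranged from 72.8 to 137 CPM over the TKO and from 78.0 to 100.2 CPM over the floxed libraries. All 4 ranges overlapped. The log2 fold change was 0.22 ± 0.19 in STZ TKO against STZ floxed (-0.17 to 0.60; edgeR adjusted p = 0.589) and 0.12 ± 0.20 in TKO against floxed (-0.29 to 0.53; edgeR adjusted p = 0.914). It was 0.16 ± 0.21 in STZ floxed against floxed (-0.27 to 0.59; edgeR adjusted p = 0.775) and 0.26 ± 0.18 in STZ TKO against TKO (-0.11 to 0.62; edgeR adjusted p = 0.575). Every estimate for Cast was positive, and every interval held 0.

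**Figure D3:**
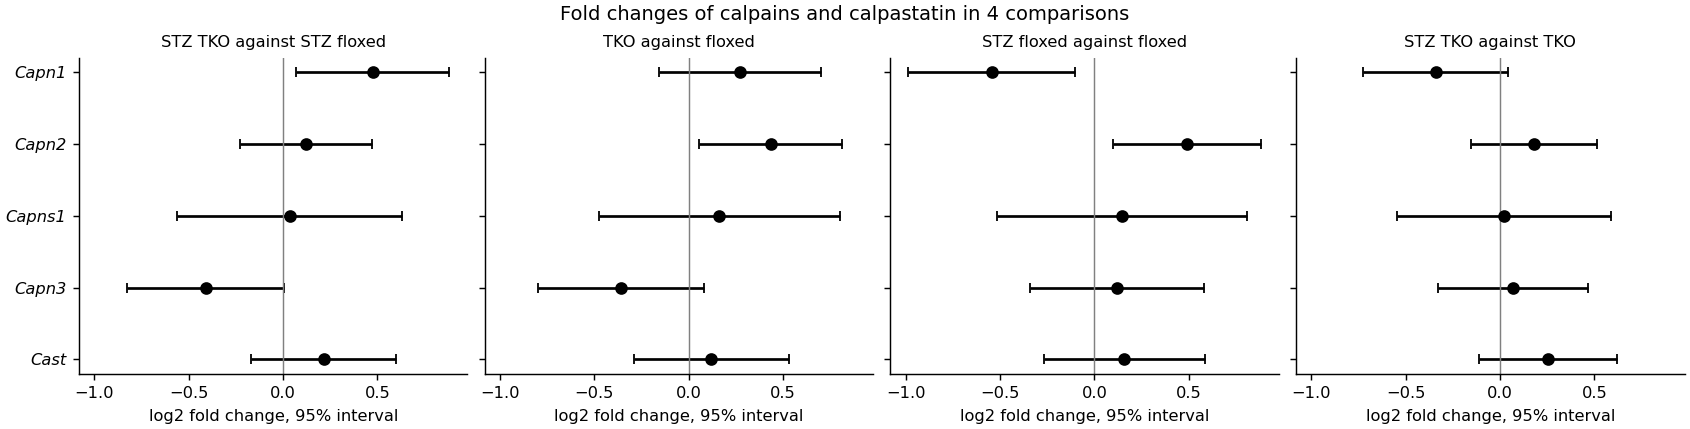
Log2 fold change of each gene (horizontal axis) with its 95% interval in 4 comparisons, the first-named group over the other; the vertical line marks 0. The intervals of Capn1 leave out 0 in STZ TKO against STZ floxed and in STZ floxed against floxed, and those of Capn2 in TKO against floxed and in STZ floxed against floxed, before adjustment over all genes.

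Counted together, 0 of the 5 genes passed the edgeR test at an adjusted p of 0.05 in STZ TKO against STZ floxed, where 4.89% of all genes tested passed. In TKO against floxed it was 0 of 5 beside 0.514%, in STZ floxed against floxed 0 of 5 beside 1.35%, and in STZ TKO against TKO 0 of 5 beside 0.142%. DESeq2 also called 0 of the 5 in each of these comparisons. At an unadjusted p of 0.05, 1 of 5 members (Capn1) was below the limit in STZ TKO against STZ floxed, beside 2364 of 12658 genes. In TKO against floxed it was 1 of 5 (Capn2), beside 1452 genes. In STZ floxed against floxed it was 2 of 5 (Capn1 and Capn2), beside 1822 genes, and in STZ TKO against TKO 0 of 5, beside 1430 genes. With 5 members and such backgrounds, these counts are no result about the set. The median log2 fold change of the members was 0.12, 0.16, 0.15 and 0.07 in the 4 comparisons in the order given, beside medians over all genes of 0.03, 0.00, 0.02 and 0.01.

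Whether the knockout acted differently with and without STZ was tested by the interaction of both factors. The difference of log2 fold changes was 0.20 ± 0.28 for Capn1, -0.31 ± 0.25 for Capn2, -0.13 ± 0.42 for Capns1, -0.05 ± 0.29 for Capn3 and 0.10 ± 0.27 for Cast. Every one had an edgeR adjusted p of 1, and 0 of 5 members passed beside 0.0079% of all genes, which is 1 gene. DESeq2 called 4 genes in the whole table and 0 members; 0 of 5 members and 493 of all genes had an unadjusted p under 0.05. The intervals were wide, from -0.38 to 0.79 for Capn1 and from -0.83 to 0.20 for Capn2.

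Averaging each effect over the other factor, a contrast added after the data were seen, narrowed the errors without bringing a member past the threshold. The knockout averaged over STZ gave 0.37 ± 0.14 for Capn1 (0.08 to 0.67; edgeR adjusted p = 0.106) and -0.38 ± 0.15 for Capn3 (-0.69 to -0.08; edgeR adjusted p = 0.103). It gave 0.28 ± 0.12 for Capn2 (edgeR adjusted p = 0.176), 0.10 ± 0.21 for Capns1 and 0.17 ± 0.14 for Cast. Here 0 of 5 members passed beside 9.8% of all genes. STZ averaged over genotype gave -0.44 ± 0.14 for Capn1 (-0.74 to -0.15; edgeR adjusted p = 0.0692) and 0.34 ± 0.12 for Capn2 (0.08 to 0.59; edgeR adjusted p = 0.112). It gave 0.10 ± 0.15 for Capn3, 0.08 ± 0.21 for Capns1 and 0.21 ± 0.14 for Cast, with 0 of 5 passing beside 4.54% of all genes. The averaged STZ value of Capn1 crossed the threshold in 5 of 27 alternatives; with DESeq2 it was -0.44 with an adjusted p = 0.0351, and with the code run as an edgeR block -0.45 with an adjusted p = 0.0326.

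Within a library, the ratio of Capn3 to Capn1 per exon kb was 1.24 ± 0.40 in STZ TKO and 2.27 ± 0.52 in STZ floxed, and 0.899 ± 0.251 in TKO and 1.42 ± 0.35 in floxed libraries (SD). It ran from 0.681 to 1.79 in STZ TKO and from 1.53 to 2.98 in STZ floxed libraries, so the groups met at their edges. The ratio of Capn2 to Capn1 was 0.493 ± 0.118 in STZ TKO and 0.683 ± 0.373 in STZ floxed, and 0.344 ± 0.098 in TKO and 0.302 ± 0.053 in floxed libraries. Both STZ groups thus had the higher averages, and STZ floxed library 17 alone reached 1.29. The ratio of Cast to the sum of Capn1 and Capn2 was 0.153 ± 0.057 in STZ TKO and 0.163 ± 0.039 in STZ floxed, and 0.107 ± 0.023 in TKO and 0.123 ± 0.017 in floxed libraries. That of Capns1 to the same sum was 2.40 ± 0.65 in STZ TKO and 3.00 ± 1.55 in STZ floxed, and 2.10 ± 0.64 in TKO and 2.37 ± 1.14 in floxed libraries. The ratios are descriptions of RNA and were not tested.

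**Figure D4:**
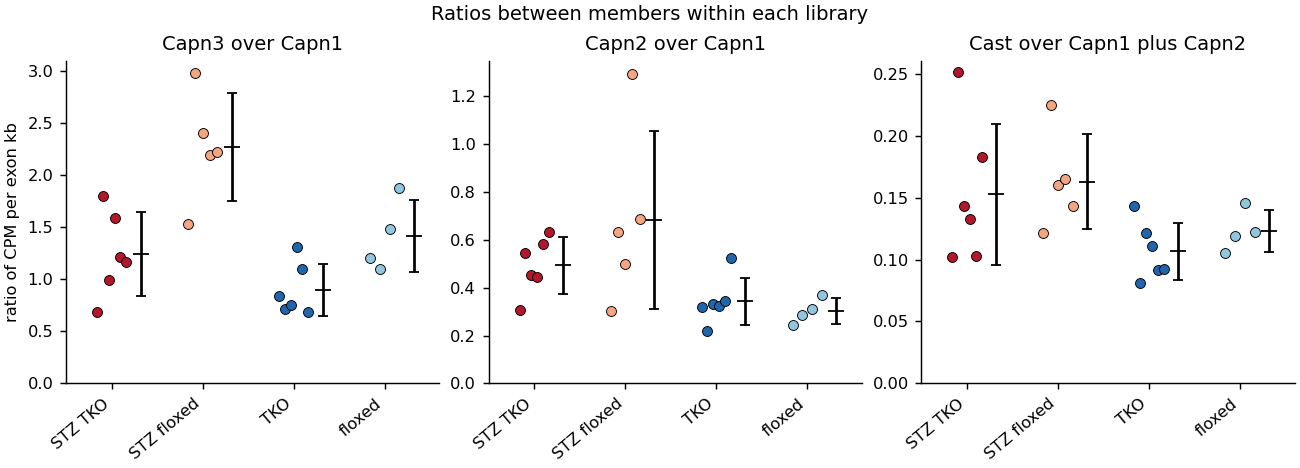
Ratios of levels per exon kilobase within each library, for Capn3 over Capn1, Capn2 over Capn1, and Cast over the sum of Capn1 and Capn2; points are libraries and bars are the mean with 1 SD. The Capn3 to Capn1 ratio averages 2.27 in STZ floxed libraries and 0.899 in TKO libraries, and library 17 is the highest point for Capn2 over Capn1.

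Markers of other cell states moved with the same comparisons. In bulk tissue, fewer cells of a type and less RNA per cell cannot be told apart. Of 14 macrophage markers, 7 rose and 0 fell in STZ TKO against STZ floxed (median log2 fold change 1.82), where 2.47% of all genes rose. In TKO against floxed 2 rose (median 2.03), beside 0.15% of all genes. Their summed level ran from 306 to 2501 CPM in STZ TKO and from 215 to 319 in STZ floxed, and from 325 to 1986 in TKO and from 188 to 257 in floxed libraries. Of 10 markers of regenerating or denervated fibres, which include Myog, Myh3, Chrna1 and Runx1, 0 passed edgeR in either knockout comparison, with median log2 fold changes of 1.12 and 2.07. Their summed level ran from 101 to 738 CPM in STZ TKO and from 98.3 to 215 in STZ floxed, and from 121 to 2046 in TKO and from 71.0 to 88.4 in floxed libraries. Averaged over STZ, 13 of 14 macrophage and 7 of 10 regenerating or denervated fibre markers rose in the knockout, beside 5.57% of all genes. Of 10 endothelial markers 0 passed edgeR in either knockout comparison (medians -0.35 and -0.23). Of 9 fibroblast markers 1 rose in STZ TKO against STZ floxed (median 0.77) and 0 passed in TKO against floxed (median 0.02). In STZ floxed against floxed 1 fell (median -0.70), where 1.35% of all genes were called in either direction. For the averaged knockout 2 of 9 fibroblast markers rose and 1 of 10 endothelial markers fell, beside 9.8% of all genes called in either direction. For averaged STZ 2 of 9 fibroblast and 1 of 10 endothelial markers fell, beside 4.54%.

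Across all 21 libraries Capn3 was lower where the regenerating or denervated fibre markers were higher. The level of a list was taken as the mean over its genes of log2 CPM centred on the mean of all libraries, and each of the 5 members was related to 5 marker lists, 25 relations in all. For Capn3 and this list Pearson's r was -0.848 (permutation p = 1e-05, the smallest that 100000 permutations can give; Benjamini-Hochberg value 0.00025). Spearman's rho was -0.744 (permutation p = 0.0002, adjusted 0.003). Without libraries 4 and 20, the farthest out on the marker axis, r was -0.682, and after removal of the group means and of the code run means it was -0.801 and -0.891. Library 20, a TKO library, had the lowest Capn3 level, at 155.4 CPM, and the highest marker level, 3.13 above the mean on the log2 scale. The correlation was of like size after both removals. Capn3 was also related to the macrophage list, with r = -0.724 (permutation p = 0.00013, adjusted 0.00108), rho = -0.626 (permutation p = 0.00306, adjusted 0.0153), and r = -0.536 without libraries 4 and 20, -0.563 after group means and -0.785 after run means. With the endothelial list r was 0.579 (permutation p = 0.00661, adjusted 0.0236), rho 0.679 (permutation p = 0.00114, adjusted 0.00725), and r was 0.672 without libraries 8 and 14 and 0.274 after group means. The part of these markers in the lower Capn3 averages of the knockout groups was not tested. Of the 25 relations, 8 had an adjusted permutation p under 0.05 by Pearson's r and 5 by Spearman's rho. The permutations shuffled all 21 libraries freely, across groups and code runs. The permutation p-values here and below therefore also take in differences between groups and runs. Coefficients after removal of group or run means were not tested.

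Capn1 moved with the mature muscle fibre markers instead. Pearson's r was 0.745 (permutation p = 7e-05, adjusted 0.000875) and rho was 0.673 (permutation p = 0.00116, adjusted 0.00725). Without libraries 5 and 17, r was 0.627, and it was 0.689 after group means and 0.777 after run means. In STZ floxed library 17 the fibre list was 1.93 below the mean of all libraries on the log2 scale, Capn1 was at its lowest (78.7 CPM), and Capn2 and Capns1 were at their highest (193.2 and 710.2 CPM). Of the 10 fibre markers, 1 rose in STZ TKO against STZ floxed, beside 2.47% of all genes that rose. In STZ floxed against floxed 1 fell, beside 1.35% of all genes called in either direction. Both times it was Mb, the oxygen store myoglobin, with log2 fold changes of 2.92 and -2.65 (edgeR adjusted p = 0.000386 and 0.00633). For the averaged knockout 1 of 10 rose, beside 5.57% of all genes. For averaged STZ 1 of 10 fell, beside 4.54% called in either direction. The median log2 fold change of the list was 0.22 in STZ TKO against STZ floxed, -0.26 in TKO against floxed, -0.63 in STZ floxed against floxed and -0.25 in STZ TKO against TKO. All 10 estimates were negative in STZ floxed against floxed, beside 48.4% of all genes tested. For averaged STZ 9 of 10 were negative (median -0.44), beside 47.9%. In STZ TKO against TKO 7 of 10 were negative, beside 48.8%, and in STZ TKO against STZ floxed 3 of 10, beside 46.4%. In TKO against floxed 9 of 10 were negative, beside 49.5%, and for the averaged knockout 6 of 10 (median -0.06), beside 47.3%. These contrasts share libraries, so their signs are not independent. The summed fibre level ran from 87800 to 155300 CPM in STZ TKO and from 43300 to 169100 in STZ floxed, and from 71590 to 178600 in TKO and from 129400 to 195200 in floxed libraries. The part of fibre content in the Capn1 values was not tested. With the fibroblast list Capn1 had r = 0.596 (permutation p = 0.00441, adjusted 0.022) and rho = 0.453 (permutation p = 0.0404, adjusted 0.112), and r was 0.185 after group means.

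Capn2 ran the other way on the fibre axis, with r = -0.622 (permutation p = 0.00151, adjusted 0.00944) and rho = -0.514 (permutation p = 0.0181, adjusted 0.0646). Without libraries 5 and 17 its r was -0.424, so the relation rests in part on those libraries. Capn2 was higher where the regenerating or denervated fibre list was higher, with rho = 0.734 (permutation p = 0.00024, adjusted 0.003) and r = 0.536 (permutation p = 0.0116, adjusted 0.0362). Its r was 0.701 without libraries 4 and 20, 0.382 after group means and 0.627 after run means. For Capns1 and the fibre list r was -0.56 (permutation p = 0.00662, adjusted 0.0236) and rho -0.469 (permutation p = 0.034, adjusted 0.106), with r = -0.316 without libraries 5 and 17, -0.711 after group means and -0.088 after run means. For Cast, no relation with any of the 5 lists had an adjusted permutation p under 0.05 by either coefficient; its strongest was with the fibroblast list, at r = -0.421 (permutation p = 0.0576, adjusted 0.144) and rho = -0.543 (permutation p = 0.0122, adjusted 0.0509).

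**Figure D5:**
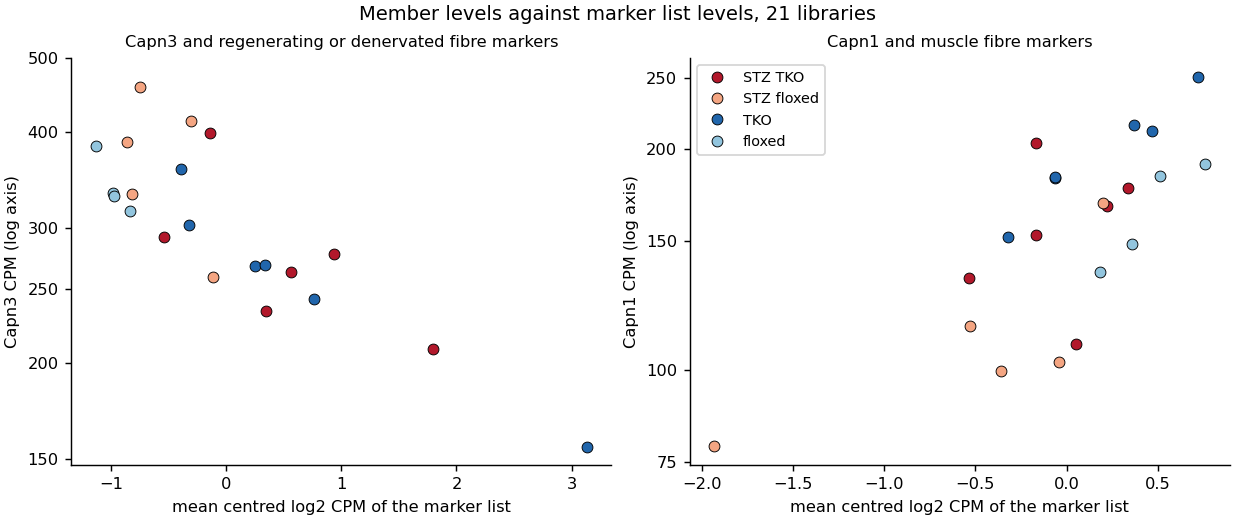
Capn3 against the mean centred log2 CPM of the regenerating or denervated fibre markers (left) and Capn1 against that of the muscle fibre markers (right), for 21 libraries coloured by group; the vertical axes are logarithmic, in CPM. Capn3 falls along the marker axis (r = -0.848) and Capn1 climbs along the fibre axis (r = 0.745), with TKO library 20 and STZ floxed library 17 at the extremes.

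Among themselves the members showed no common pattern. The correlation of log2 CPM over 21 libraries was 0.531 for Capn2 with Capns1, -0.469 for Capn2 with Capn3 and -0.314 for Capn1 with Capn2, with the other 7 pairs between -0.252 and 0.268. The 3 genes nearest to Capn1 in pattern were Sema6c, Slc44a2 and Obsl1, at r = 0.911, 0.908 and 0.904 over the 21 libraries, and 0.808, 0.828 and 0.783 after group means. Nearest to Capn2 were Airn (0.868), Ppfibp1 (0.852) and Tnfrsf23 (0.839). Nearest to Capn3 were Tigar (0.895), Gpcpd1 (0.878) and Fam118b (0.868), and nearest to Cast were Eif2b3 (0.836), Cwf19l2 (0.834) and Arfgap2 (0.808). Nearest to Capns1 were Ppp4c (0.87), Zfp202 (0.864) and Rbbp4 (0.863), whose r after group means was 0.919, 0.876 and 0.913. These coefficients are descriptions over libraries that differ in group, run and tissue makeup, and the nearest of 12658 genes are chosen to be high.

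Of 11 other calpain genes, 5 passed the low-count filter (Capn5, Capn6, Capn7, Capn10 and Capn15). Among these 5, 0 passed edgeR in any of the 5 planned comparisons, beside 0.0079% to 4.89% of all genes tested. Capn8, a stomach calpain, had 0 counts, and Capn9, Capn11, Capn12, Capn13 and Capns2 had 5, 84, 33, 1 and 11 counts over all libraries together. Capn7, a widely expressed calpain, stood at 136 ± 37.7 CPM in STZ TKO and 166 ± 49.6 in STZ floxed, and 109 ± 40.03 in TKO and 151 ± 19.5 in floxed libraries. Its log2 fold change was -0.29 in STZ TKO against STZ floxed and -0.47 in TKO against floxed (edgeR adjusted p = 0.603 and 0.561). Capn6, an embryonic muscle calpain without the catalytic cysteine, ranged from 5.40 to 93.2 CPM in TKO and from 7.24 to 12.0 CPM in floxed libraries. The means were 22.2 ± 34.9 and 9.69 ± 1.94 CPM, and the highest TKO library carried most of the TKO mean. The list's median log2 fold change was 0.00, 0.16, -0.20 and -0.33 in the 4 comparisons.

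Caspases are the proteases of apoptosis, and all 16 genes examined in the caspase and apoptosis list passed the filter. In the 5 planned comparisons 0 of 16 passed edgeR, beside 0.0079% to 4.89% of all genes tested. The list's median log2 fold changes were 0.01, 0.24, 0.32 and 0.13 in the 4 comparisons between groups.

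With both knockout effects averaged, 1 of 16 rose and 1 fell, near the background of 9.8% of all genes called, so the count is no result about the list. Casp8, an initiator caspase, averaged 10.07 ± 3.57 CPM in STZ TKO and 6.91 ± 1.33 in STZ floxed, and 8.66 ± 3.48 in TKO and 5.24 ± 1.06 in floxed libraries. Its averaged log2 fold change was 0.64 ± 0.20 (edgeR adjusted p = 0.0454). The survival gene Bcl2 averaged 7.52 ± 1.58 CPM in STZ TKO and 10.19 ± 4.49 in STZ floxed, and 4.91 ± 1.55 in TKO and 10.36 ± 3.76 in floxed libraries, and its averaged value was -0.74 ± 0.21 (edgeR adjusted p = 0.0244). Casp8 was at 11.2, 13.7 and 14.6 CPM in STZ TKO libraries 4, 8 and 15 and at 9.70 and 15.0 CPM in TKO libraries 16 and 20. The summed macrophage markers of these 5 libraries reached 1943, 1064, 2501, 1139 and 1986 CPM. TKO library 6 and STZ TKO library 18, next in marker sum at 850.7 and 744.4 CPM, had Casp8 at 8.48 and 6.47 CPM. Without libraries 4, 15, 16 and 20, which had the highest marker sums, the averaged value was 0.35 for Casp8 (edgeR adjusted p = 0.356) and -0.81 for Bcl2 (0.0584), and neither passed. The Casp8 call was fragile, as it held in 11 of 27 alternatives, against 24 of 27 for Bcl2. Leaving out only floxed library 9 gave 0.58 for Casp8 (edgeR adjusted p = 0.108) and -0.63 for Bcl2 (0.0775). The part of macrophages in the Casp8 values was not tested. With STZ averaged over genotype, 1 of 16 passed, Casp4, an inflammatory caspase, at 1.39 ± 0.38 (edgeR adjusted p = 0.0391), beside 2.16% of all genes that rose. The Casp4 call held in 15 of 27 alternatives. Without STZ floxed library 17 the value was 1.07 (edgeR adjusted p = 0.0988), and without floxed library 5 it was 1.29 (0.0854). Casp4 also failed to pass when library 1, 2, 9, 10, 13, 15, 18 or 19 was left out alone. Its level was low, with 8, 1, 4 and 6 counts in floxed libraries 1, 5, 9 and 19 (0.28 to 1.11 CPM).

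Of 16 calpain substrates and binding partners in muscle, among them titin (Ttn), nebulin (Neb), desmin (Des) and dysferlin (Dysf), 1 rose and 0 fell in STZ TKO against STZ floxed, where 2.47% of all genes rose and 4.89% were called in either direction. It was Anxa1, a membrane-repair and anti-inflammatory annexin, at 24.5 to 98.6 CPM in STZ TKO and 15.5 to 20.8 CPM in STZ floxed libraries. Its log2 fold change was 1.68 ± 0.41 (edgeR adjusted p = 0.0184), and 0.0589 with no low-count filter. The other planned comparisons called 0 of 16, beside 0.0079% to 1.35% of all genes, and the list medians were -0.18, -0.02, 0.11 and 0.07. Dmd, which encodes dystrophin, ranged from 30.0 to 105 CPM in TKO and from 106 to 155.4 CPM in floxed libraries without overlap, as did 2.61% of all genes in that direction, but its log2 fold change of -1.01 ± 0.29 had an edgeR adjusted p = 0.11. For the averaged knockout 2 of 16 passed, beside 9.8% of all genes. Neither this count nor the 1 of 16 above is a result about the list. The averaged log2 fold changes were 1.34 ± 0.30 for Anxa1 (edgeR adjusted p = 0.00568) and -0.82 ± 0.20 for Dmd (edgeR adjusted p = 0.0097). Without libraries 4, 15, 16 and 20 these became 0.70 and -0.62, with adjusted p = 0.0535 and 0.0598. Anxa1 is also expressed by macrophages, whose part in its value was not tested.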

How the data were processed

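The deposited file holds raw counts per gene for 21 libraries, made by the authors with STAR and featureCounts on GRCm38.p4, per the submitters' processing notes. Versions, annotation, strand setting and treatment of multiply mapped reads are not given in these sources. Libraries were stranded, per the labels' protocols. Genes were named with GENCODE vM21, and 45143 of 46071 identifiers had a symbol.

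Counts went into edgeR 4.0.16 (R 4.3.3): filterByExpr kept 12658 genes, followed by TMM scaling and a robust quasi-likelihood fit of 4 group means over all 21 libraries, with Benjamini-Hochberg adjustment over all genes and a threshold of 0.05. The standard error is the log2 fold change divided by the square root of F, and 95% intervals use the t distribution with the model's degrees of freedom. The biological coefficient of variation was 0.325. The median library held 5665819 counts, and mean counts of the members ran from 533 (Cast) to 2202 (Capns1), so counting error was small beside the spread between libraries. The procedure was tested on simulated data, with changes larger than any estimated for the members, so that test does not cover differences of their size.

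Named genes were every member, every gene of 3 lists (other calpains, caspases and apoptosis, substrates and binding partners), the 3 genes closest to each member by Pearson correlation of log2 CPM (prior count 2), and Foxo1, Foxo3 and Foxo4; marker lists covered muscle fibre, macrophage, endothelial, fibroblast and regenerating or denervated fibre. Members and lists were chosen with earlier results of these data known. The averaged contrasts, the relations with marker lists, the within-library ratios and the split of code runs were added after the data were seen. Alternatives were DESeq2 1.42.0, RLE scaling, no low-count filter, the code run as a block, only the groups compared, and leaving out libraries. Sequences are RefSeq promoters; protein sequences were not used here. 1 gene of the caspase list is not reported here.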

Additional observations from a re-analysis of the deposited data

How the results depend on the processing

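Depth was not the limit for the members, which averaged 533 to 2202 counts per library; the spread between 4 to 6 libraries a group was. No paired analysis was possible because each library number occurs once and no number is shared between groups; the run of library codes, which mixes groups, was fitted as a block instead. RLE scaling moved no count of calls beyond 1.5 times. The values below follow the order STZ TKO against STZ floxed, TKO against floxed, STZ floxed against floxed, STZ TKO against TKO. DESeq2 called 1011, 351, 425 and 111 genes where edgeR called 619, 65, 171 and 18, 4 instead of 1 for the interaction and 1100 instead of 575 for averaged STZ. Without a low-count filter 29 genes were called in STZ TKO against TKO and 2 for the interaction. With the code run as a block, 1068 were called in STZ TKO against STZ floxed, 98 in STZ TKO against TKO, 0 for the interaction (DESeq2 4; 493 at an unadjusted p of 0.05 in the edgeR fit without the block) and 1006 for averaged STZ. Fitting only the groups compared gave 312 in STZ TKO against STZ floxed, 265 in STZ floxed against floxed and 4 in STZ TKO against TKO. Without libraries 17 and 18 the counts were 125 in TKO against floxed, 28 in STZ TKO against TKO and 312 for averaged STZ. Without libraries 4, 15, 16 and 20 they were 40 in TKO against floxed, 0 for the interaction and 529 instead of 1240 for the averaged knockout. The cause of these shifts was not tested.

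The count of members called went to 1 for averaged STZ with DESeq2, with the block and without libraries 4, 15, 16 and 20 (Capn1 each time; -0.44, -0.45 and -0.56, adjusted p = 0.0351, 0.0326 and 0.039), and to 1 for the averaged knockout without libraries 17 and 18 (Capn2, 0.36, edgeR adjusted p = 0.0379). Leaving out 1 library at a time, members called ran from 0 to 1 in STZ TKO against STZ floxed (Capn1 without library 3) and for both averaged contrasts. For the averaged knockout these were Capn1 without library 3 (0.49), Capn3 without library 12 (-0.45) and Capn2 without library 17 (0.38), and for averaged STZ Capn1 without library 3 (-0.55) and without library 4 (-0.49). Genes called ran from 380 to 780, 32 to 105, 31 to 333 and 7 to 61 in the 4 comparisons, 0 to 2 for the interaction, 965 to 1401 for the averaged knockout and 216 to 1027 for averaged STZ.

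Signs turned where values lay near 0. With the block Capns1 was -0.018 in TKO against floxed, -0.12 in STZ floxed against floxed, 0.14 for the interaction and -0.047 for averaged STZ, and Cast -0.049 for the interaction. With only the groups compared Capns1 was -0.0041 in STZ TKO against TKO. Without libraries 17 and 18 Capns1 was -0.16 in STZ floxed against floxed, -0.073 in STZ TKO against TKO, 0.085 for the interaction and -0.12 for averaged STZ. Without libraries 4, 15, 16 and 20 the interaction of Capn1 was -0.039. Leaving out 1 library, Capns1 ran from -0.14 to 0.34 in STZ TKO against STZ floxed, in STZ floxed against floxed from -0.15 to 0.43, in STZ TKO against TKO from -0.092 to 0.12, for the interaction from -0.40 to 0.16 and for averaged STZ from -0.066 to 0.22. Capn3 ran from -0.060 to 0.17 in STZ TKO against TKO and from -0.18 to 0.053 for the interaction. Of 965 values of members under alternatives, 30 turned sign.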
